A study of Homo sapiens with 4 samples.

Results

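The endoplasmic reticulum (ER) folds, glycosylates and inspects proteins that enter the secretory pathway, and 49 genes of this machinery were followed in osteosarcoma cells with and without silencing of hsa_circ_0000073. The genes were taken by name, as chaperones and cochaperones, disulfide enzymes, glycan-processing enzymes and lectins, degradation factors, stress sensors with their transcription factors, and translocation and insertion factors. All 49 had a probe set that the platform annotation gives to that gene alone, out of 33458 genes with such a probe set, and the brightest stood for each gene. Of the 49 genes, 47 had a mean log2 signal of at least 6, and SDF2L1 and DERL3 lay below it.

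Total RNA came from MG-63 and Saos-2, 2 established human lines of osteosarcoma, and was measured on 4 Affymetrix arrays. In each line 1 array held cells transfected with sh-circ_0000073, a short hairpin RNA against hsa_circ_0000073, and 1 array held cells transfected with the control hairpin sh-NC. The titles call the same RNAs si-hsa_circ_0000073 and si-NC, no time after transfection is labelled, and 1 hairpin stands for each condition. With 1 array per condition in a line, nothing within a line could be checked on replicates or given a p-value. Deposited values are log2 signals, with an array median of 3.75 for sh-circ_0000073 and 3.74 for sh-NC in each line. The osteoblast markers ALPL (3.97 and 3.89), SP7 (2.94 and 2.83) and IBSP (3.54 and 3.62) were near or below the array median in MG-63. In Saos-2 they were at 15.81 and 16.57, 8.66 and 9.77, and 12.73 and 13.23. RUNX2 was at 7.72 and 7.57 in MG-63, against 16.39 and 16.53 in Saos-2. COL1A1 was at 10.03 and 10.03 in MG-63, against 11.84 and 11.23 in Saos-2, and SPP1 lay between 3.34 and 4.05 on all arrays, so that 4 of the 6 osteoblast markers were near or below the median in MG-63. Of 8 measured markers of leukocytes, epithelium and endothelium, 7 lay between 2.66 and 5.12 on every array, whereas EPCAM was at 9.59 and 9.45 in Saos-2. The part of these markers in the differences between the lines was not tested. In bulk RNA a change in every cell cannot be told apart from a larger change in some of the cells.

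In the ER lumen HSPA5 (BiP) and its cochaperones bind unfolded chains, oxidases and isomerases of the protein disulfide isomerase (PDI) family set disulfide bonds, and glucosidases with the lectins CALR and CANX run a folding cycle on N-glycans. Chains that fail are marked by mannose trimming and passed to a ubiquitin ligase complex around SEL1L and SYVN1 for degradation. The sensors ERN1 (IRE1), ATF6 and EIF2AK3 (PERK) read folding load and set the unfolded protein response, which raises the supply of chaperones and degradation factors. Osteoblasts depend on this machinery because they secrete collagen.

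With sh-circ_0000073, GANAB, PRDX4, EMC6 and CREB3L1 had higher signals in both lines, and EDEM1 and HSP90B1 had lower signals in both on the probe sets used, while another probe set of each stayed within 1.5-fold. In MG-63 more of the 49 genes lay below the control than above it, and SEC61A1, CRELD2 and DNAJB11 were past 1.5-fold lower. In Saos-2 more lay above it than below, and ERO1A, MANF and DNAJB9 were past 1.5-fold higher.

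Counted by size alone, sh-circ_0000073 left 4 of the 49 genes more than 1.5-fold above sh-NC and 8 more than 1.5-fold below it in MG-63. In percent these are 8.16% and 16.3% of the 49 genes. Over all 33458 genes 8.99% were higher and 7.17% lower, and over the 11536 genes with a mean log2 signal of at least 6, where most of the 49 genes lie, 14.0% were higher and 11.5% lower. In Saos-2, 14 genes were higher and 4 lower, which is 28.6% and 8.16%. The matching shares there were 8.97% and 5.18% over all genes, and 15.7% and 8.46% over genes at a log2 signal of at least 6. The count of higher genes in Saos-2 thus lay further above its background than the count of lower genes in MG-63 did. Counts by role given below are to be set against these same shares, and each role holds few genes. Past 1.5-fold in the same direction in both lines were 4 higher and 2 lower genes, or 8.16% and 4.08%. The background was 1.77% higher and 1.25% lower over all genes, and 3.96% and 2.96% at a log2 signal of at least 6. No gene was past 1.5-fold in opposite directions, and 25 genes were past it in neither line, with changes from -0.58 to 0.34 in MG-63 and from -0.56 to 0.55 in Saos-2.

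The median log2 change of the 49 genes was -0.20 in MG-63 and 0.25 in Saos-2, where genes at a log2 signal of at least 6 had medians of 0.05 and 0.12. In MG-63, 35 of the 49 changes were below 0, or 71.4%, against 45.6% of the genes at a log2 signal of at least 6. In Saos-2, 36 were above 0, or 73.5%, against 60.4% of those genes. For 23 of the 49 genes the change was below 0 in MG-63 and above 0 in Saos-2, and for 0 genes the other way round. These are 46.9% and 0.0%, against 23.4% and 16.6% of the genes at a log2 signal of at least 6. The change was more positive in Saos-2 than in MG-63 for 41 of the 49 genes, or 83.7%, against 55.0%. This order was found for 40 or 41 of the 49 genes when changes were centred or the arrays quantile normalized. Whether the lines respond differently was not tested, because 4 arrays leave no residual degree of freedom for it.

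limma, fitted over both lines with the line as a term, called 0.0% of 36176 probe sets higher and 0.0% lower for the hairpin at an adjusted p under 0.05, and none of the 49 genes. At an unadjusted p under 0.05 there were 9 of the 49 genes, or 18.4%, 5 of them higher. Of all 36176 probe sets 2628 were under it, or 7.26%. Many of all probe sets are dim, and the share among probe sets of similar signal was not counted. This fit has 1 residual degree of freedom per probe set before variances are moderated. That residual is how far the change with the hairpin differs between the lines.

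**Figure D1:**
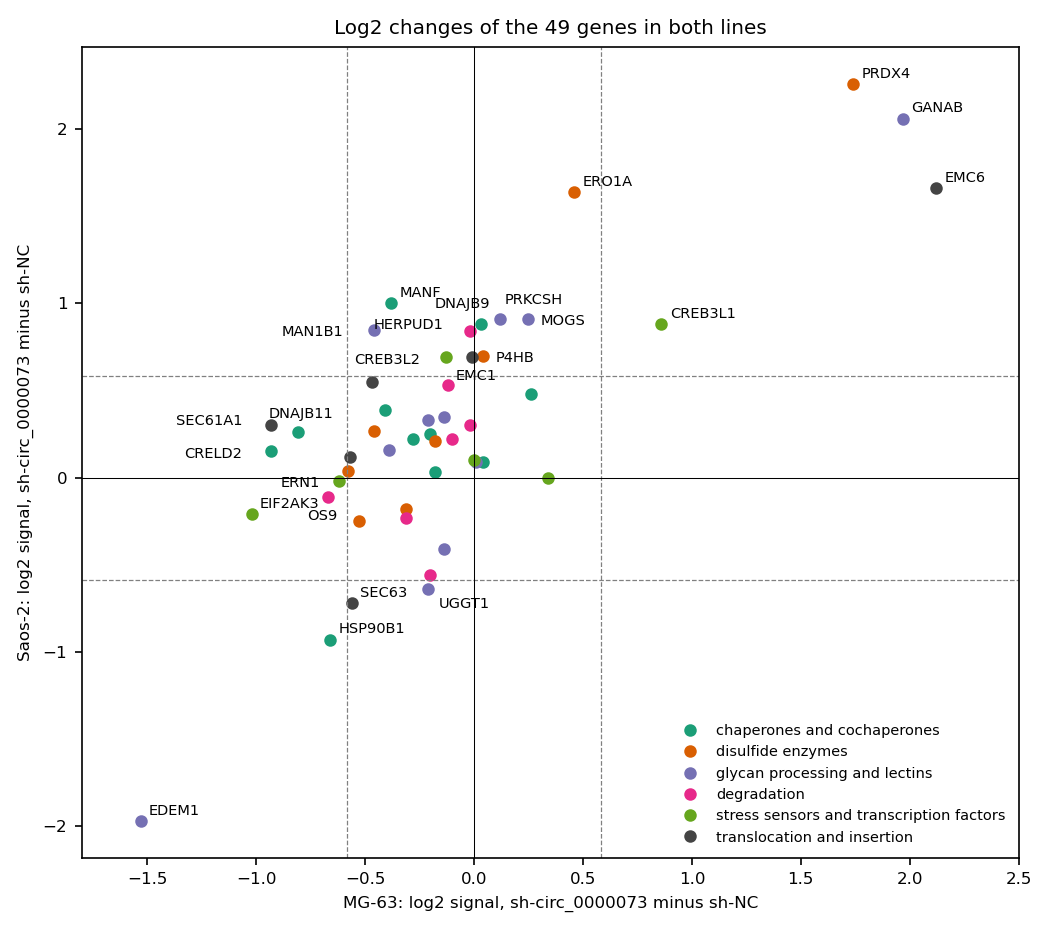
Log2 change (sh-circ_0000073 minus sh-NC), in MG-63 on the horizontal axis and in Saos-2 on the vertical axis, for the 49 genes, 1 point per gene, coloured by role. Dashed lines mark 1.5-fold, genes past it in at least 1 line are named, and GANAB, PRDX4 and EMC6 at the upper right and EDEM1 at the lower left stand apart, while 23 genes lie to the left of 0 and above 0.

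GANAB encodes the catalytic subunit of glucosidase II, which removes glucoses from N-glycans and so lets a glycoprotein leave the lectin cycle. Its log2 signal was 14.72 with sh-circ_0000073 and 12.75 with sh-NC in MG-63, with 14.40 and 12.34 in Saos-2. Both sh-circ_0000073 arrays lay above both sh-NC arrays, by 3.92-fold and 4.17-fold within the lines. The mean log2 change was 2.02 with a standard error of 0.21 (adjusted p = 0.153 from limma, 0.00727 to 0.422 across its alternatives with a line term). PRKCSH, the regulatory subunit of the same enzyme, had 16.26 and 16.14 in MG-63, a difference of 1.09-fold, and 14.86 and 13.95 in Saos-2, 1.88-fold higher. The subunits of glucosidase II therefore had unequal changes in both lines, and in MG-63 only GANAB was past 1.5-fold.

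PRDX4, a peroxiredoxin that uses the hydrogen peroxide made during disulfide formation, had log2 signals of 14.47 with sh-circ_0000073 and 12.73 with sh-NC in MG-63. In Saos-2 it had 14.13 and 11.87. The sh-circ_0000073 arrays did not overlap the sh-NC arrays, with differences of 3.34-fold and 4.79-fold. Its mean log2 change was 2.0 (standard error 0.24, adjusted p = 0.158 from limma, 0.01 to 0.422 under the other settings with a line term). EMC6, a subunit of the ER membrane complex that inserts transmembrane proteins, had 10.13 and 8.01 in MG-63, with 9.44 and 7.78 in Saos-2. It was thus 4.35-fold and 3.16-fold higher, again with no overlap between the hairpins (adjusted p = 0.29 from limma, 0.0499 to 1 under the other settings). EMC1, a large subunit of the same complex, had 8.48 and 8.49 in MG-63, with 10.41 and 9.72 in Saos-2, so that it was past 1.5-fold in Saos-2 alone, at 1.61-fold.

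EDEM1, which speeds the mannose trimming that sends misfolded glycoproteins to degradation, had 8.81 with sh-circ_0000073 and 10.34 with sh-NC in MG-63, with 7.11 and 9.08 in Saos-2. It was 2.89-fold and 3.92-fold lower, and in each line the sh-circ_0000073 array was the lower one. Its mean log2 change was -1.75 (standard error 0.29, adjusted p = 0.33 from limma, 0.0555 to 0.645 under the other settings with a line term). A dimmer probe set of EDEM1 had 5.32 and 5.39 in MG-63, with 5.07 and 5.13 in Saos-2, and so did not show the difference. Its homologues EDEM2 and EDEM3 were past 1.5-fold in neither line, with changes of -0.39 and 0.16 for EDEM2 and -0.14 and 0.35 for EDEM3.

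Among chaperones and cochaperones, 3 of 11 were lower and 0 higher in MG-63, whereas Saos-2 had 2 higher and 1 lower. HSPA5, the Hsp70 of the ER, had 19.14 with sh-circ_0000073 and 19.32 with sh-NC in MG-63, with 16.21 and 16.18 in Saos-2, and differed by less than 1.5-fold in both. In MG-63 its signals lay near the array maxima of 19.93 and 19.89, and whether the arrays saturate there was not tested. HSP90B1, which encodes the ER Hsp90 GRP94, had 12.32 and 12.98 in MG-63, with 6.08 and 7.01 in Saos-2, 1.58-fold and 1.91-fold lower. A brighter probe set that the platform names for both HSP90B1 and MIR3652, and that was not used for the gene, had 18.25 and 18.67 in MG-63, with 16.96 and 16.96 in Saos-2. The difference of HSP90B1 past 1.5-fold was therefore seen on 1 of 2 probe sets that carry its name.

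DNAJB11, a cochaperone that hands substrates to BiP, had 14.81 with sh-circ_0000073 and 15.62 with sh-NC in MG-63, 1.75-fold lower, but 12.50 and 12.24 in Saos-2. Its dimmer probe set had changes of -0.58 and 0.45, with the same signs. CRELD2, an ER protein induced by folding stress, had 9.11 and 10.04 in MG-63, 1.91-fold lower, and 7.04 and 6.89 in Saos-2. MANF, a stress-induced and secreted partner of BiP, had 12.06 and 12.44 in MG-63, 1.30-fold lower, and 9.48 and 8.48 in Saos-2, 2.0-fold higher. The cochaperone DNAJB9 had 14.39 and 14.36 in MG-63, and was 1.84-fold higher in Saos-2 at 10.85 and 9.97. MANF and DNAJB9 were thus past 1.5-fold in Saos-2 alone, and DNAJB11 and CRELD2 in MG-63 alone. The other chaperone genes were HYOU1 and SIL1, which exchange the nucleotide of BiP, DNAJC3, DNAJC10 and SDF2L1. Their changes ran from -0.41 for HYOU1 to 0.26 for SDF2L1 in MG-63, and from 0.09 for DNAJC3 to 0.48 for SDF2L1 in Saos-2. HYOU1 is represented by 23 probe sets, of which 21 had changes below 0 in MG-63 and 19 above 0 in Saos-2. Those probe sets share RNA and arrays and are not replicates.

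Of 8 disulfide enzymes, 1 was past 1.5-fold higher in MG-63, 3 were in Saos-2, and 0 were lower in either line. ERO1A, the oxidase that passes electrons from PDI to oxygen, had 17.66 with sh-circ_0000073 and 17.20 with sh-NC in MG-63, 1.38-fold higher, and 16.46 and 14.82 in Saos-2, 3.12-fold higher. P4HB, which is PDI itself and also a subunit of the collagen prolyl hydroxylase, had 16.12 and 16.08 in MG-63, 1.03-fold higher, and 15.99 and 15.29 in Saos-2, 1.62-fold higher. The other PDI-family genes were within 1.5-fold in both lines. PDIA3, which works with CALR and CANX on glycoproteins, had 17.17 and 17.70 in MG-63, with 15.84 and 16.09 in Saos-2. PDIA4 and PDIA6 had changes of -0.58 and -0.46 in MG-63, with 0.04 and 0.27 in Saos-2. ERP44, which retains ERO1A in the early secretory pathway, and the PDI-family protein ERP29 stayed within 1.24-fold in both lines.

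Of 11 genes of glycan processing and lectins, MG-63 had 1 higher and 1 lower, whereas Saos-2 had 4 higher and 2 lower. CALR had 19.58 with sh-circ_0000073 and 19.79 with sh-NC in MG-63, with 18.53 and 18.20 in Saos-2. CANX, its membrane-bound counterpart, had 18.91 and 19.05 in MG-63, with 17.31 and 17.72 in Saos-2, and neither lectin was past 1.5-fold. The MG-63 signals of both lectins lay near the array maxima, as for HSPA5. MOGS, the glucosidase that trims the outermost glucose, had 8.60 and 8.35 in MG-63, 1.19-fold higher, and 9.43 and 8.52 in Saos-2, 1.88-fold higher. All 3 genes of the glucosidases, MOGS, GANAB and PRKCSH, were thus past 1.5-fold higher in Saos-2, and only GANAB was in MG-63. UGGT1, which adds a glucose back to unfolded glycoproteins, had 13.76 and 13.97 in MG-63, 1.16-fold lower, and 13.03 and 13.67 in Saos-2, 1.56-fold lower. Its paralogue UGGT2 differed by at most 1.06-fold. MAN1B1, a mannosidase that starts glycoprotein disposal, had 6.42 and 6.88 in MG-63, 1.38-fold lower, and 7.30 and 6.45 in Saos-2, 1.80-fold higher.

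**Figure D2:**
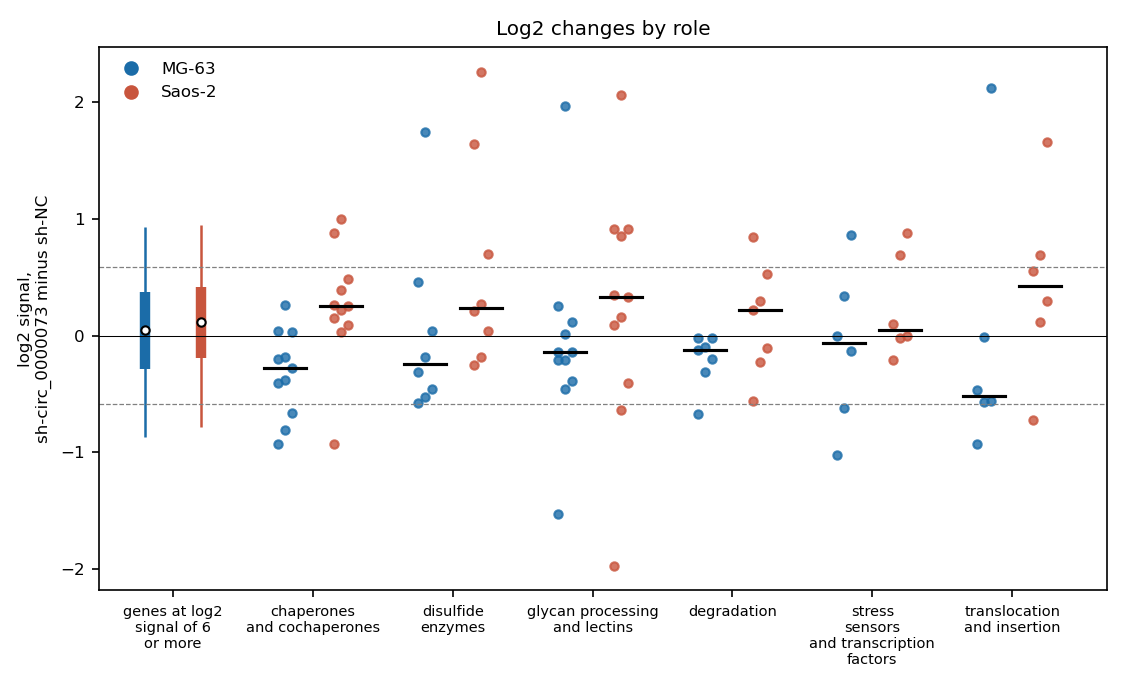
Log2 change (sh-circ_0000073 minus sh-NC), by role, with MG-63 at the left and Saos-2 at the right of each pair, 1 point per gene and a black bar at the median. The leftmost pair shows the 11536 genes at a log2 signal of at least 6, with thick bars from the 25th to the 75th percentile, thin bars from the 5th to the 95th and a circle at the median, and in each role the Saos-2 median lies above the MG-63 median.

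All 7 degradation genes had changes below 0 in MG-63, from -0.67 to -0.02. The share below 0 was 45.6% over genes at a log2 signal of at least 6. It was 52.4% over 21 other degradation genes, with 11 below 0. Of the 7 genes, 1 was past 1.5-fold. That gene was OS9, a lectin that brings trimmed glycoproteins to the ligase complex, which had 14.44 with sh-circ_0000073 and 15.11 with sh-NC, 1.59-fold lower, and 15.77 and 15.88 in Saos-2. HERPUD1, a scaffold of the ligase complex that folding stress induces, had 18.34 and 18.36 in MG-63, 1.01-fold lower, and 11.14 and 10.30 in Saos-2, 1.79-fold higher. It was the single degradation gene past 1.5-fold in Saos-2. SEL1L, the adaptor, had 15.19 and 15.50 in MG-63, with 12.34 and 12.57 in Saos-2, and SYVN1, the ubiquitin ligase, had 14.56 and 14.58 in MG-63, with 10.73 and 10.43 in Saos-2. The derlins, membrane proteins of the exit channel, also stayed inside 1.5-fold. DERL1 had 14.94 and 15.04 in MG-63, with 15.32 and 15.10 in Saos-2, DERL2 had changes of -0.20 and -0.56, and DERL3 lay near the array medians, between 3.58 and 4.11.

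Of the 3 sensors, EIF2AK3 (PERK), the kinase that slows translation, had 8.85 with sh-circ_0000073 and 9.87 with sh-NC in MG-63, 2.03-fold lower, and 9.29 and 9.50 in Saos-2. ERN1 (IRE1) had 6.60 and 7.22 in MG-63, 1.54-fold lower, and 6.96 and 6.98 in Saos-2. ATF6 had 12.07 and 12.07 in MG-63, with 12.12 and 12.02 in Saos-2. In MG-63, therefore, EIF2AK3 and ERN1 were past 1.5-fold lower and ATF6 was at 0.00, and in Saos-2 no sensor was past it. XBP1, whose mRNA ERN1 splices, had 15.07 and 14.73 in MG-63, with 10.03 and 10.03 in Saos-2, and these arrays do not measure its splicing here. CREB3L1 (OASIS), a membrane-bound factor that drives type I collagen in mouse osteoblasts, had 6.91 and 6.05 in MG-63, with 8.38 and 7.5 in Saos-2, 1.82-fold and 1.84-fold higher. Its mean log2 change was 0.87 (standard error 0.28, adjusted p = 0.616 from limma, 0.274 to 0.645 under the other settings with a line term). The related CREB3L2 had 8.15 and 8.28 in MG-63 and was past 1.5-fold in Saos-2 alone, at 8.75 and 8.06.

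SEC61A1, the pore of the translocation channel, had 14.98 with sh-circ_0000073 and 15.91 with sh-NC in MG-63, 1.91-fold lower, and 13.05 and 12.75 in Saos-2, 1.23-fold higher. SEC61B, a small subunit of the channel, was 1.39-fold lower in MG-63 at 12.18 and 12.65, and 1.46-fold higher in Saos-2 at 12.91 and 12.36. SEC61A1 and SEC61B thus lay on opposite sides of their controls in the lines. SEC63, which recruits BiP to the channel, had 15.26 and 15.82 in MG-63, with 14.74 and 15.46 in Saos-2, 1.47-fold and 1.65-fold lower, and its partner SEC62 had changes of -0.57 and 0.12.

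**Figure D3:**
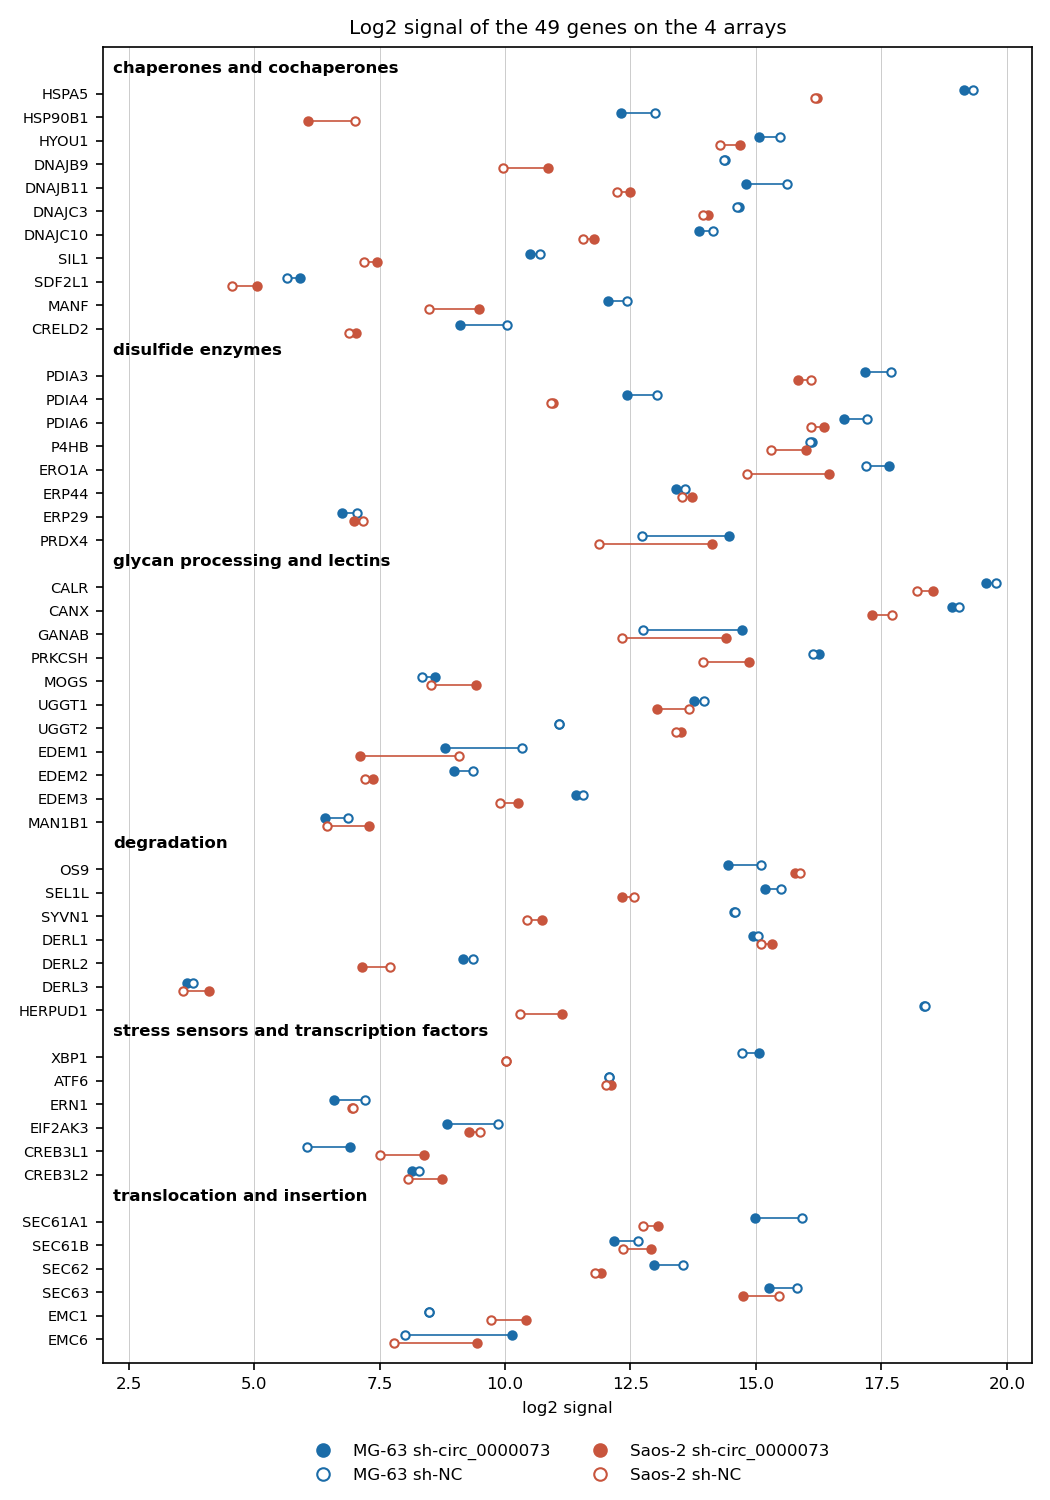
Log2 signal of each of the 49 genes on the 4 arrays, in rows grouped by role. Filled points are sh-circ_0000073 and open points sh-NC, in blue for MG-63 and red for Saos-2, joined within a line. Points should be compared within a row, since probe sets differ in brightness. The rows of HERPUD1, HSP90B1 and XBP1 show the widest gaps between the lines.

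Many more of the genes differed between the lines than between the hairpins. In the same limma fit, 28 of the 49 genes were higher in MG-63 than in Saos-2 and 4 were lower at an adjusted p under 0.05, against 13.7% and 11.9% of the 36176 probe sets. Many of those probe sets are dim. In the fit limited to a log2 signal of at least 6, 27 of 47 genes were higher and 4 lower, against 3955 and 3542 of 12091 probe sets. Both MG-63 arrays lay above both Saos-2 arrays for 29 genes and below them for 5, and the lines overlapped for 15. Over genes at a log2 signal of at least 6, both MG-63 arrays were above for 41.7% and below for 38.1%, against 59.2% and 10.2% of the 49 genes. The median difference was 0.97 on the log2 scale for the 49 genes and 0.06 for genes at a log2 signal of at least 6. The 2 arrays of a line carry different hairpins, and no label says that they come from separate cultures. Before moderation, the residual spread behind these p-values is how far the change with the hairpin differs between these 2 lines. Technical spread cannot be told apart from unequal responses in it, and it does not measure the spread between cultures.

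All 11 chaperone and cochaperone genes were called higher in MG-63, with a median log2 difference of 2.84. The smallest differences were 0.65 for DNAJC3 (adjusted p = 0.0488 from limma, 0.0214 to 0.12 across its alternatives) and 0.79 for HYOU1 (adjusted p = 0.0459 from limma, 0.0168 to 0.0962 across them). Both calls were lost after quantile normalization, without the variance trend, without the hairpin term and with 1 probe set fitted per gene, and that of DNAJC3 also after averaging of probe sets. HSPA5 had 19.14 and 19.32 in MG-63 against 16.21 and 16.18 in Saos-2, 8.2-fold higher (log2 difference 3.04, standard error 0.14, adjusted p = 8.61e-06 from limma). Of the degradation genes, HERPUD1 had 18.34 and 18.36 in MG-63 against 11.14 and 10.30 in Saos-2, and its log2 difference of 7.63 (standard error 0.25, adjusted p = 2.1e-06 from limma) was the largest of the 49. SYVN1 and SEL1L, which form the core of the same ligase complex, were 15.9-fold and 7.41-fold higher in MG-63. XBP1 had 15.07 and 14.73 in MG-63 against 10.03 and 10.03 in Saos-2, 29.2-fold higher, whereas the sensors ATF6, ERN1 and EIF2AK3 overlapped between the lines, with log2 differences of 0.00, -0.06 and -0.04. None of the 3 sensors was called between the lines, whereas XBP1 was.

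HSP90B1 had the second largest difference, 6.11, on its own probe set. On the brighter probe set named for HSP90B1 and MIR3652 MG-63 averaged 18.46, against 16.96 for Saos-2, a log2 difference of 1.5, so that the direction was shared but the size was not. Higher in Saos-2 were UGGT2, at 11.08 and 11.07 in MG-63 against 13.50 and 13.41 in Saos-2 (log2 difference -2.38, standard error 0.23, adjusted p = 0.000242 from limma), EMC1 at -1.58, CREB3L1 at -1.46 and OS9 at -1.05. Those 4 genes belong to 4 different roles. EDEM1 was called higher in MG-63 at 1.48 although its arrays overlapped, at 8.81 and 10.34 in MG-63 against 7.11 and 9.08 in Saos-2. With each hairpin taken alone, its MG-63 array was the higher one. The call of EDEM1 was lost after averaging of probe sets and without the hairpin term (adjusted p = 0.0607 and 0.18 from limma). The dimmer probe set of EDEM1 had a log2 difference of 0.255 between the lines. GANAB, PRDX4 and EMC6, which stood apart under the hairpin, were not called between the lines, and their arrays overlapped. With each hairpin taken alone, their MG-63 array was the higher one.

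**Figure D4:**
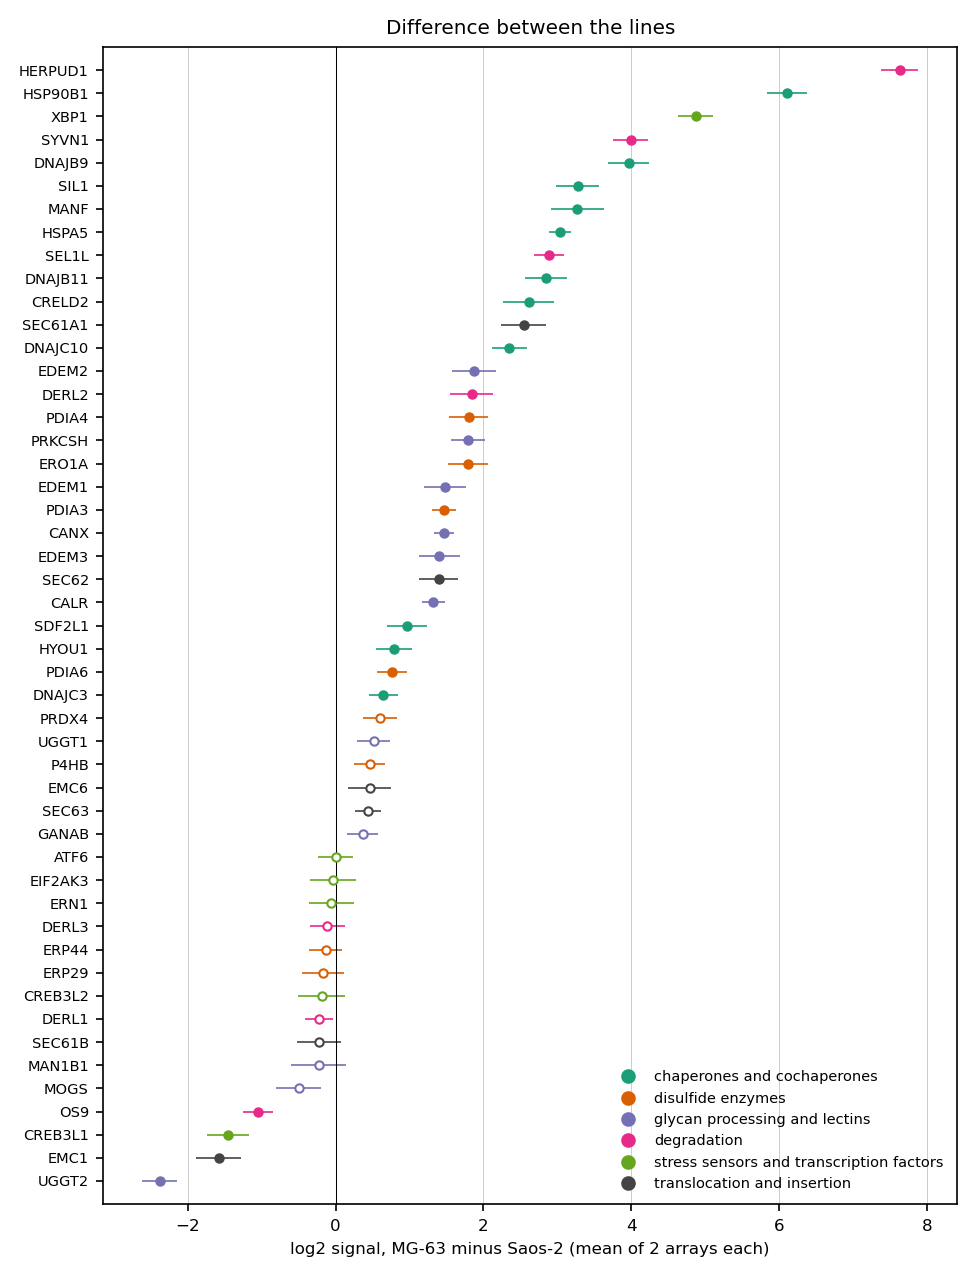
Difference in log2 signal between MG-63 and Saos-2, each the mean of 2 arrays, for the 49 genes in order of size, coloured by role, with bars for the standard error of the moderated fit. Filled points have an adjusted p under 0.05 from limma, and 28 of them lie to the right of 0 and 4 to the left.

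The ER stress elements, bound by ATF6 with NF-Y, are the best known switch of this gene group, and their letters were looked up because so many of the genes differed together between the lines. RefSeq promoters (GRCh38.p14, 250 bases before to 50 after the annotated start) were found for 45 of the 49 genes, all but PDIA3, DERL3, MOGS and DERL1. Element I, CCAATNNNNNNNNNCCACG on either strand, occurred in the promoters of 7 of these 45 genes, or 15.6%, against 25 of 27305 genes with a promoter, or 0.0916%. Element II, ATTGGNCCACG on either strand, occurred in 3 genes, or 6.67%, against 0.0696% of all genes. The sequence TGACGTGG, the core of the element that XBP1 binds, occurred in DNAJC10, SEC62 and HYOU1, or 6.67%, against 0.927% of all genes. In HYOU1 this core overlaps the second element II printed here. Both the 49 genes and the elements come from what is already known of this gene group. A share above that of all genes could therefore be foreseen and is no result of these data. A match of letters is a description of the sequence and does not show that a factor binds. Whether the elements have a part in the differences between the lines was not tested.

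The stretches below are printed along the strand of the gene with the element in capitals and 15 bases on each side, to show how the matches compare. In CALR, CRELD2, HYOU1, SDF2L1 and the second HSP90B1 stretch the element is on the opposite strand and reads as its reverse complement. CANX, the remaining gene with element I, is named only.
HSPA5 (chr9:125241376-125241424, minus strand): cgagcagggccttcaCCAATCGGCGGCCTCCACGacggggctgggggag
XBP1 (chr22:28800588-28800636, minus strand): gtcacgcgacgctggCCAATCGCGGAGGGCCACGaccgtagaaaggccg
PDIA6 (chr2:10812838-10812886, minus strand): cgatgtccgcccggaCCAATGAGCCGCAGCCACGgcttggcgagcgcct
HSP90B1, first (chr12:103930201-103930249, plus strand): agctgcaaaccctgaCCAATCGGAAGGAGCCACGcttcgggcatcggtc
HSP90B1, second (chr12:103930306-103930354, plus strand): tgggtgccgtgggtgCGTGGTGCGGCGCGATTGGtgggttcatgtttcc
CALR (chr19:12938369-12938417, plus strand): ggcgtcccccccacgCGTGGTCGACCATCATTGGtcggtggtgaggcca
CRELD2 (chr22:49918539-49918587, plus strand): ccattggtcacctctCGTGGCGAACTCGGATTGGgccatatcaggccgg
HERPUD1, element II (chr16:56932010-56932050, plus strand): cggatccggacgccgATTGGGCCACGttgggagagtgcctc
HYOU1, element II, first (chr11:119057259-119057299, minus strand): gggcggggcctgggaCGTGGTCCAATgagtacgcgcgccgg
HYOU1, element II, second (chr11:119057365-119057405, minus strand): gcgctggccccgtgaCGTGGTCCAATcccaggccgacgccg
SDF2L1, element II (chr22:21642099-21642139, plus strand): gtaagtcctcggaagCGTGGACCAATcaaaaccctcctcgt

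All 10 genes with element I or II had higher means in MG-63 than in Saos-2, with log2 differences from 0.76 for PDIA6 to 7.63 for HERPUD1. Of all 49 genes, these 10 among them, 34 did, or 69.4%, against 51.8% of the genes at a log2 signal of at least 6. All 11 chaperone and cochaperone genes did, also MANF, DNAJB9 and SIL1, which hold neither element. The elements were looked up with this difference between the lines known. With sh-circ_0000073 the changes of the 10 genes ran from -0.93 for CRELD2 to 0.34 for XBP1 in MG-63, with 8 of 10 below 0. In Saos-2 they ran from -0.93 for HSP90B1 to 0.84 for HERPUD1, with 7 of 10 above 0. GANAB, PRDX4 and EMC6 hold neither element in this window.

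Further genes of the secretory pathway, 148 in 9 lists, were read in the same way, and 137 had a probe set of their own. With sh-circ_0000073, 2 of these genes were past 1.5-fold higher in both lines and 4 lower, or 1.46% and 2.92%, against 1.77% and 1.25% over all genes and 3.96% and 2.96% at a log2 signal of at least 6, and limma called 0 of them for the hairpin. The oligosaccharyltransferase, which attaches N-glycans, had 0 genes higher and 3 lower of 11 in MG-63, with a median log2 change of -0.31, and none past 1.5-fold in Saos-2, with a median of 0.13. Other PDI-family and oxidising enzymes had 3 lower and 0 higher of 12 in each line, with medians of -0.30 in MG-63 and -0.15 in Saos-2. ERO1B, the second ER oxidase, was among them and had 7.90 with sh-circ_0000073 and 9.34 with sh-NC in MG-63, 2.71-fold lower, and 3.23 and 4.05 in Saos-2, near the array median. GPX8, an ER peroxidase, had 8.67 and 9.99 in MG-63, with 9.94 and 10.62 in Saos-2, 2.5-fold and 1.60-fold lower. The adjusted p from limma over both lines was 0.588 for ERO1B and 0.61 for GPX8.

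Other ER chaperones and lectins had 3 lower and 0 higher of 16 in MG-63 (median -0.31) and 2 lower and 1 higher in Saos-2 (median 0.00). KDELR3, a receptor that returns escaped chaperones to the ER, had 11.01 with sh-circ_0000073 and 12.46 with sh-NC in MG-63, with 9.18 and 10.43 in Saos-2, 2.73-fold and 2.38-fold lower. Genes of export from the ER had 1 higher and 2 lower of 17 in MG-63 (median -0.13), against 5 higher and 0 lower in Saos-2 (median 0.39). TFG, an organiser of exit sites, was past 1.5-fold higher in both, at 17.08 and 16.49 in MG-63, with 13.08 and 12.48 in Saos-2. Other degradation genes had 1 higher and 3 lower of 21 in MG-63 (median -0.01), against 6 higher and 0 lower in Saos-2 (median 0.18). ERLIN1, which passes membrane proteins to degradation, had 12.18 and 11.02 in MG-63, with 12.51 and 11.19 in Saos-2, 2.23-fold and 2.5-fold higher. Over all 9 lists MG-63 had 4.38% of the genes past 1.5-fold higher and 16.1% past it lower. The shares were 8.99% and 7.17% over all genes, and 14.0% and 11.5% at a log2 signal of at least 6. Saos-2 had 13.9% past 1.5-fold higher and 5.84% past it lower, against 8.97% and 5.18% over all genes, and 15.7% and 8.46%.

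Collagen-directed ER enzymes, which modify procollagen, had 2 higher and 2 lower of 19 in MG-63 (median 0.13), against 4 higher and 0 lower in Saos-2 (median 0.24). Other stress factors and outputs had 1 higher and 3 lower of 14 in MG-63 (median -0.08), against 2 higher and 0 lower in Saos-2 (median 0.00). Other translocation and insertion genes had 1 higher and 1 lower of 22 in MG-63 (median -0.13), against 1 higher and 2 lower in Saos-2 (median 0.14). Of 5 receptors of ER autophagy, 0 were higher in either line, 2 were lower in MG-63 and 1 in Saos-2. RTN3, which shapes ER tubules, was lower in both and had 15.09 with sh-circ_0000073 and 15.88 with sh-NC in MG-63, with 14.25 and 15.12 in Saos-2. Between the lines, 12 of the 17 export genes were called higher in MG-63 and 0 lower, the most one-sided of the 9 lists. Over all 36176 probe sets, many of them dim, 13.7% were called higher and 11.9% lower. In the fit limited to a log2 signal of at least 6, 3955 were called higher and 3542 lower of 12091. The counts of each list that follow are to be set against both backgrounds. Of the 16 other chaperones and lectins 8 were called higher and 3 lower. The counts were 8 and 4 of 19 collagen-directed enzymes, 7 and 5 of 21 other degradation genes, and 4 and 3 of 12 other PDI-family enzymes. They were 10 and 4 of 22 translocation genes, 7 and 3 of 14 stress factors, 5 and 1 of 11 oligosaccharyltransferase genes, and 3 and 0 of 5 autophagy receptors.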

How the data were processed

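Total RNA of MG-63 and Saos-2 cells was measured by the authors on 4 arrays with a GeneChip WT Pico Reagent Kit. The authors deposited log2 signals of 135750 probe sets, made with Affymetrix Expression Console. For its version, summarisation and background correction the entry is "not given in the sources used here". How these steps scale a fold is therefore unknown, and signals reach 19.93.

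Gene symbols came from the platform annotation, updated through RefSeq (GRCh38.p14). Of the probe sets 36176 carried 1 symbol and were used, and the brightest represented each of 33458 genes. Changes are log2 differences, sh-circ_0000073 minus sh-NC, and were set against 1.5-fold. limma 3.58.1 in R 4.3.3 fitted line and hairpin over all 36176 probe sets with trended variances and adjustment by Benjamini-Hochberg, and was tested on simulated data. Python 3.11.15, numpy 2.4.6 and pandas 2.3.3 did the rest. Alternatives were averaging of probe sets, centring, quantile normalization, a minimum log2 signal of 6, 2-fold, and fits without the trend, the line or the hairpin. The number of arrays limits the precision.

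The 49 genes, the lists and the tests were chosen with earlier results of these data known. Values on each array are given for genes past 1.5-fold in at least 1 line and for the central genes of each role, and from each list for at most 3 genes past it in both lines at a log2 signal of at least 6. The genes with the largest differences between the lines are named too. Comparisons of proteins were not run.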

Additional observations from a re-analysis of the deposited data

Results flagged for a closer look

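For 6 genes the changes in the 2 lines had opposite signs and differed by more than 2-fold, with 1 array per condition in each line, and this difference was not tested. The change in MG-63 minus the change in Saos-2 was -1.38 on the log2 scale for MANF, -1.31 for MAN1B1, -1.23 for SEC61A1, -1.08 for CRELD2, -1.07 for DNAJB11 and -1.02 for SEC61B. In all 6 the MG-63 change was the negative one. MAN1B1 had log2 signals between 6.42 and 7.30, close to the dim end of the genes used.

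A signal outside the probe sets used came from the probe set that the platform names for both HSP90B1 and MIR3652. Its log2 change was -0.42 in MG-63 and 0.00 in Saos-2, against -0.66 and -0.93 on the probe set of HSP90B1 alone.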

How the results depend on the processing

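The arrays carry no replicate numbers, and the hairpin was compared with the line as a block in every fit but the alternative without the line term. That alternative leaves the difference between the lines in the residual spread, and it called none of the 49 genes for the hairpin. All 30 changes past 1.5-fold kept their sign and stayed past 1.5-fold under probe set averaging, centring and quantile normalization, whereas the second probe set of DNAJB11 and EDEM1 took 3 of them below it. At 2-fold, 2 genes were lower in MG-63, 4 higher and 1 lower in Saos-2, and 1 lower in both lines. The median change in Saos-2 was 0.16 after quantile normalization. For the hairpin limma called 3 of the 49 genes higher after quantile normalization (GANAB, PRDX4 and EMC6) and 2 (GANAB and PRDX4) with probe sets of a log2 signal of at least 6, where all probe sets gave 15 higher and 25 lower calls and 9 and 11. It called 0 of the 49 lower under every setting. Without GANAB, PRDX4, EMC6 and EDEM1, an alternative chosen after seeing the data, 1 gene was higher and 7 lower in MG-63. In Saos-2 11 were then higher and 3 lower, and 1 was higher and 1 lower in both lines. Between the lines 25 to 28 genes were called higher in MG-63 and 4 lower under each setting. DNAJC3, HYOU1, EDEM1 and PDIA6 were among the calls lost under some settings. Array depth has no count here, and SDF2L1 and DERL3 lay nearest the array medians.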

Other observations

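Across the 49 genes the changes in MG-63 and Saos-2 correlated with r = 0.76 (Pearson) and rho = 0.58 (Spearman), and with 0.48 and 0.46 over the 45 genes without GANAB, PRDX4, EMC6 and EDEM1. Over the 11536 genes at a log2 signal of at least 6 they were 0.29 and 0.26. Genes on the same arrays are not independent, and no p-value belongs to these values.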
